A study of Rattus norvegicus with 112 samples.

Results

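The subject here is the neuronal subunits of the nicotinic acetylcholine receptor, measured by microarray in primary cortical neurons of the rat. The members were all probe sets annotated to Chrna2, Chrna3, Chrna4, Chrna5, Chrna6, Chrna7, Chrnb2, Chrnb3 and Chrnb4. A probe set is a group of short array probes that reads 1 transcript, and 12 of the 1263 probe sets kept, from 9 of the 720 named genes, met that rule. Chrna7 was read by 3 probe sets and Chrnb4 by 2, and each of the other 7 genes by 1. The rule itself used no measured value, though it was set with earlier results of these data known.

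Nicotinic receptors are pentamers of subunits around a cation channel that acetylcholine or nicotine opens. Receptors of alpha4 and beta2 subunits bind nicotine with high affinity and, with homomeric alpha7 receptors, are the main kinds in cerebral cortex. Alpha7 receptors are known for high calcium permeability and fast desensitisation. Receptors of alpha3 and beta4, often with alpha5, are known from autonomic ganglia, and alpha6 with beta3 from catecholamine neurons. Long exposure to nicotine is known to raise the number of alpha4 beta2 receptors, a change that has mostly been placed after transcription.

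The series held 112 arrays, of which 84 formed the replicated experiments described here as the main values. The labels call every sample cerebral cortex and name primary cortical neurons for many of the treated arrays; strain, age and what controls received are not stated there. Nicotine, the agonist, was given at 10 uM in 3 experiments. In the first, a 15 min exposure ended with a medium change and the cells were harvested 45 min later (3 control and 3 nicotine arrays). Another gave it for 18 h, alone or followed by 1 mM NMDA for 60 min, with 3 arrays each of control, nicotine, NMDA and both. NMDA is the agonist that names a class of glutamate receptors. In the washed-out experiment nicotine for 18 h, NMDA for 30 min, or both were washed off 24 h before harvest, with 5 arrays a group. The compound 4R, which the labels call a non-competitive antagonist of nicotinic receptors, was given at 2 uM for 18 h with harvest at once, or with 24 h without it before harvest (3 control and 3 treated arrays each). NMDA at 1 mM was also left on until harvest for 10, 30, 60, 180 or 360 min (3 arrays a group), or washed off after 10, 30 or 60 min with harvest 24 h later (4 arrays a group), with a second pulse set of 1 array a group. Controls are labelled with no agent.

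Each experiment was hybridised as a run of its own, so every change below was taken within a run. Of the 84 arrays, 9 stood apart from the others of their run in mean rank correlation, among them replicates 3 and 4 of the washed-out controls, at -0.03 and 0.40 against 0.82 or more for the 18 arrays of that run that did not stand apart. In the 4R experiments no array stood apart. The washed-out samples were hybridised in 2 runs, and the repeat run, which the labels tie to an oven failure without saying which arrays it touched, gave the main values. All 10 neuronal markers that the array carries passed the intensity filter in every run, and their summed signal in 25 control arrays (those of the main runs and the second pulse set) was 66250 to 171431, with a median of 145107. Of the astrocyte markers 4 of 5 passed in every run, with a summed signal of 25583 to 95424, so glial RNA was present too. Oligodendrocyte markers passed for 3 of 4, the only microglial marker, Itgam, did not pass in every run, and Igf2 was the only endothelial or meningeal marker on the array and passed.

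In bulk RNA, fewer cells of a type and less RNA per cell cannot be told apart. Where nothing in the labels says that arrays came from separate cultures, the p-values measure only the spread between those samples, which may be technical.

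By RefSeq gene order, Chrna5, Chrna3 and Chrnb4 are consecutive protein-coding genes on rat chromosome 8, and Chrna6 and Chrnb3 are neighbours on chromosome 16. RefSeq's promoter table (build GRCr8) held 6 of the 9 genes, all but Chrna2, Chrna6 and Chrnb3. The upstream windows of Chrna3 and Chrna7 are shown because the NMDA results turn on these genes. The Chrna3 window is chr8:64311252-64311501 on the minus strand and ends 1 base before the listed start. The Chrna7 window is chr1:126249182-126249379 on the minus strand and covers bases 250 to 53 before the start, beyond which another transcript of the gene begins. Capitals mark matches, on either strand, to a GC box (GGGCGG) or an E box (CACGTG).
Chrna3: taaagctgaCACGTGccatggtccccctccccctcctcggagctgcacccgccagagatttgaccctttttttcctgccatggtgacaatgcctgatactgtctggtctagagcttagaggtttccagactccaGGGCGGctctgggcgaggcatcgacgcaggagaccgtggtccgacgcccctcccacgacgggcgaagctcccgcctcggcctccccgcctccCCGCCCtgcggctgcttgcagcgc
Chrna7: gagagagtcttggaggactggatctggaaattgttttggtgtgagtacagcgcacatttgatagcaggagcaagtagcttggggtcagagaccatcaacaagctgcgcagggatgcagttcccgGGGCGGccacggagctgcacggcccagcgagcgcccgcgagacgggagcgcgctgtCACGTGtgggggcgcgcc
The Chrna3 window held 2 GC boxes and 1 E box. Among 33469 RefSeq promoter windows of the same 250 bases, 30.5% held a GC box and 5.59% an E box. The Chrna7 window of 198 bases held 1 of each, against 23.9% and 4.11% of windows of that length. Neither window held a cAMP response element (TGACGTCA, in 1.59% of the longer and 0.914% of the shorter windows) or an Egr element (GCGGGGGCG, in 2.45% and 1.70%). These are matches of letters and not known sites.

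Signal is the deposited intensity, scaled by the authors to a common mean, and a brighter probe set is not thereby a more abundant transcript, so no probe set is set against another. Probe sets whose mean in a run lay in the lowest 30% were left out of that run's test. Such dim members are mentioned below mostly where their groups did not overlap. Those not named overlapped in the main comparisons. The share of all dim probe sets without overlap was not counted, so these picked readings are no evidence of a change. The main subunits of cortex were measured there: the alpha7 probe set L31619_at had a median of 674 over the 25 control arrays (119 to 2762), and beta2 of 422 (41.8 to 4630); both were tested in all 7 main runs. Alpha4 had a control median of 534 (130 to 1351) and missed the filter in the washed-out run alone. The ganglionic beta4 subunit had medians of 808 (192 to 5157) by J05232cds_s_at and 968 (549 to 6837) by U42976_at, and both probe sets were tested in every run. Alpha3 had 405 (46.0 to 963) and was tested in 5 runs, and alpha2, a subunit of restricted distribution in rodent brain, had 308 (102 to 2347) and was tested in all 7. The accessory subunit alpha5 had 243 (67.8 to 3859) and was tested in 2 runs. The pair known from catecholamine neurons was dim: alpha6 had 161 (36.3 to 2154) and beta3 had 136 (13.3 to 686), and neither passed the filter in any main run. The other Chrna7 probe sets, L31619_g_at at 110 (77.1 to 4123) and S53987_at at 190 (51.8 to 809), did not pass either.

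The control signal of the same probe set moved from run to run. The highest run median was 2.41 times the lowest for alpha4 and 6.19 times for alpha3. The Chrna7 median of L31619_at was 296 in the washed-out controls and 1187 in the pulse controls. That of alpha4 was 455 in the pulse controls and 1099 in the 4R washed-out controls, and that of beta2 was 261 in the pulse and 800 in the 4R 18 h controls. Leaving out washed-out controls 3 and 4 brought the highest control value of alpha5 from 3859 to 395 and that of U42976_at from 6837 to 1841.

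**Figure D1:**
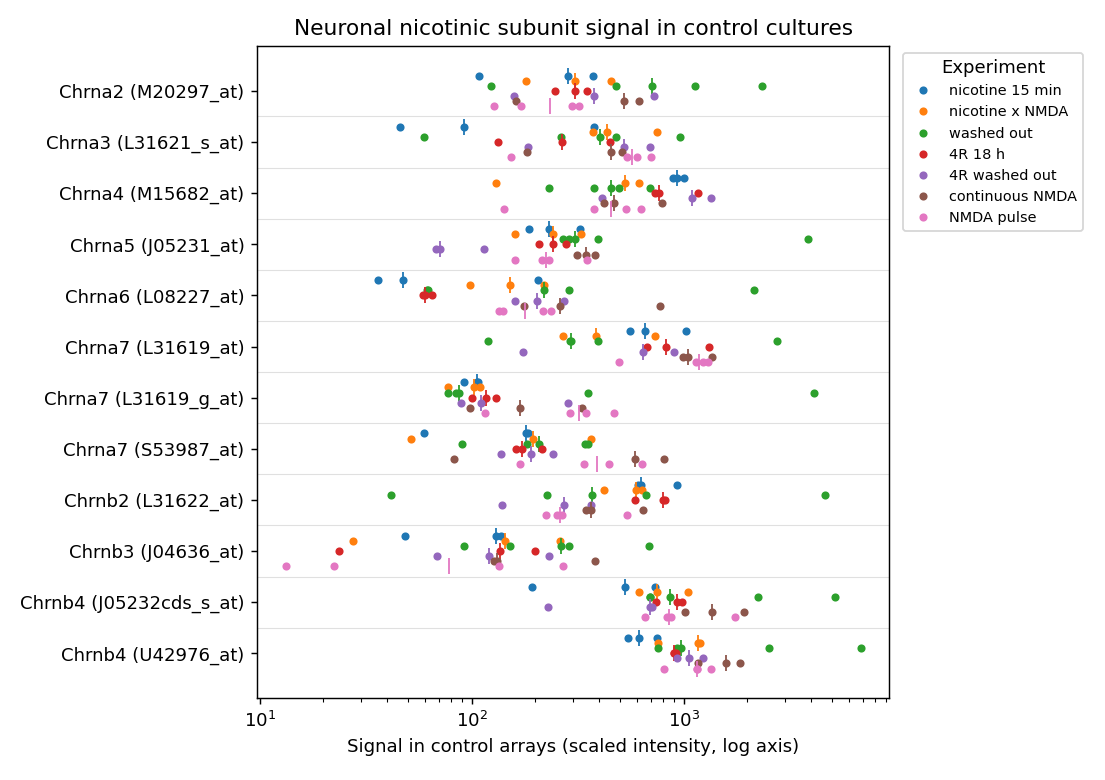
Signal of the 12 probe sets in the control arrays of the 7 replicated experiments, on a log axis. Each point is 1 array, vertical ticks are run medians, and colours are experiments; the washed-out controls (green) hold the highest values of most probe sets, such as 6837 for Chrnb4.

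The washed-out samples, read in 2 runs, show how repeatable each probe set is. Over the 18 samples without controls 3 and 4, the SD of repeated log2 values was 0.28 and 0.29 for the Chrnb4 probe sets, close to the median of 0.258 over 826 probe sets tested in both runs. It was larger for the other members, at 0.61 for L31619_at of Chrna7, 0.46 for Chrna4, 0.51 for Chrnb2, 0.54 for Chrna2 and 0.85 for Chrna3. The SD within groups of the first run was 0.73 for L31619_at and 0.74 for Chrna4, against 0.25 for U42976_at. The spread between repeats was thus smaller for both Chrnb4 probe sets than for those of Chrna4 and Chrnb2 and for L31619_at. That does not make beta4 the better measured subunit. For U42976_at the SD between repeats, 0.29, was no smaller than the 0.25 within groups.

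The first question was whether a short exposure to nicotine moved its own receptor subunits. After 15 min of nicotine, the tested members lay between -0.11 and 0.90 on the log2 scale, and 5 of 7 probe sets were above 0. Both Chrnb4 probe sets had higher values with nicotine, and neither passed the test. No member passed an adjusted p of 0.05 with limma, and neither did any of the 884 probe sets tested (0%). At an unadjusted p under 0.05 there was 1 member of 7, against 3.28% of all tested probe sets. The median change was 0.11 over the members and -0.00 over all probe sets.

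Chrnb4 encodes the beta4 subunit, which forms receptors with alpha3. With J05232cds_s_at the nicotine arrays read 774, 1084 and 731 and the controls 733, 530 and 192. The lowest nicotine array thus lay just under the highest control. The difference was 0.90 (SE 0.39, 95% interval 0.03 to 1.76, limma adjusted p = 1). With U42976_at the nicotine arrays read 821, 880 and 846, and the controls 751, 619 and 549. All 3 nicotine arrays were above all controls, a pattern that 9.84% of the tested probe sets showed in one direction or the other. The difference was 0.39 (SE 0.20, 95% interval -0.05 to 0.83, limma adjusted p = 1). Control 3, which held the lowest value of both probe sets, was 1 of the arrays that stood apart. Its mean rank correlation was 0.943, against 0.952 or more for the other arrays of this run, so it differed little from them. Without it, with 2 controls left, the J05232cds_s_at difference was 0.41 and that of U42976_at 0.29. The latter was without overlap, as were 19.2% of probe sets once control 3 was left out.

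Chrna7 (L31619_at) read 1070, 1137 and 753 after 15 min of nicotine and 560, 655 and 1032 in its controls. The groups overlapped through control 3, and the difference was 0.40 (SE 0.26, limma adjusted p = 1). Without control 3, with 2 controls left, it was 0.63 (95% interval 0.09 to 1.18, limma adjusted p = 0.976), with no overlap, as for 19.2% of probe sets there. Chrnb2 read 865, 632 and 844 against 628, 936 and 609, a difference of 0.11 (95% interval -0.40 to 0.63). Chrna4 read 1006, 951 and 680 against 1006, 889 and 933, a difference of -0.11 (95% interval -0.55 to 0.33). The 2 subunits of the main cortical receptor therefore had intervals on both sides of 0. Chrna2 differed by 0.07 (95% interval -1.05 to 1.19) and Chrna5 by -0.04 (95% interval -0.92 to 0.85). Among the untested dim probe sets, Chrnb3 read 226, 241 and 173 against 130, 48.3 and 137. L31619_g_at of Chrna7 read 107, 373 and 141 against 92.3, 107 and 106. Both lay above their controls without overlap, with no test, while Chrna6 and S53987_at, also dim, overlapped. Chrna3, at 291, 237 and 79.6 against 376, 46.0 and 92.4, was too dim here and overlapped.

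After 18 h of nicotine the members were spread around 0. They lay between -0.76 and 0.44, 3 of 7 were above 0, and the median was -0.14 against 0.01 over all probe sets. No member and none of the 884 probe sets passed (0% by limma), and at an unadjusted p under 0.05 there was no member of 7 against 4.52% overall. No tested member's groups were free of overlap, against 8.14% of tested probe sets.

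Chrna4 read 211, 714 and 845 with nicotine and 614, 130 and 532 without, a difference of 0.44 (95% interval -0.70 to 1.59). Control 2, at 130, stood apart, and without arrays that stood apart the difference was -0.14 (limma adjusted p = 0.985). Chrnb2, its partner, read 221, 481 and 263 against 634, 594 and 422, a difference of -0.72 (95% interval -1.91 to 0.46, limma adjusted p = 0.783). All 3 Chrnb2 nicotine arrays were below the control mean, while the Chrna4 arrays lay on both sides of theirs. Chrna7 read 105, 137 and 700 against 271, 388 and 731, a difference of -0.76 (95% interval -1.92 to 0.40, limma adjusted p = 0.762). The labels give same-numbered arrays of this experiment the same date, and replicate 3 was the highest in both groups. Chrnb4 differed by 0.09 (95% interval -0.40 to 0.58) with J05232cds_s_at and by -0.14 (95% interval -0.64 to 0.36) with U42976_at. These intervals were the narrowest among the members. Chrna3 differed by -0.33 (95% interval -1.07 to 0.40) and Chrna2 by 0.05 (95% interval -1.35 to 1.44).

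**Figure D2:**
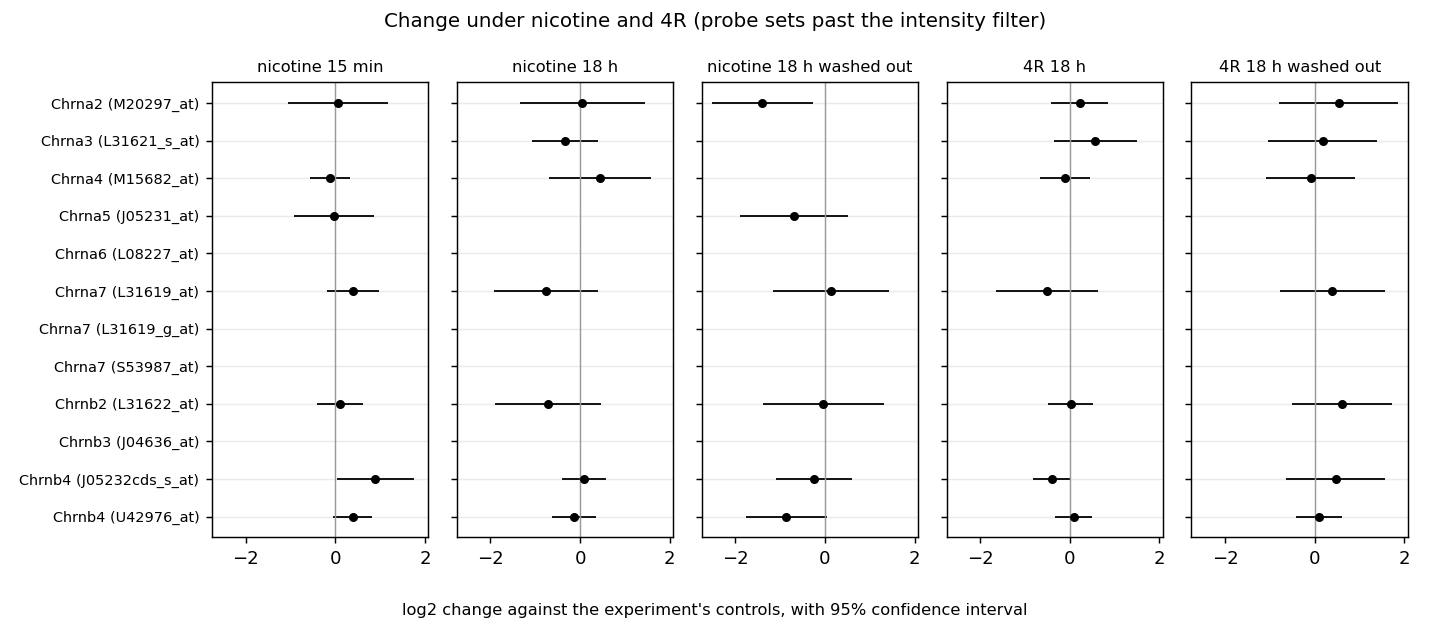
Log2 change of the tested member probe sets against the controls of the same experiment (points) with 95% confidence intervals (lines), for nicotine and 4R. Empty rows did not pass the intensity filter in that run. All intervals but those of Chrnb4 (J05232cds_s_at) at 15 min and Chrna2 after washout include 0. Chrna2 passed the filter of the washed-out run only through its control group, and its change was 0.45 in the first run of those samples.

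When nicotine had been washed off for 24 h, the values depended on which arrays entered. In the repeat run no member passed, nor any of the 884 probe sets (0% by limma); at an unadjusted p under 0.05 there was 1 member of 6, Chrna2, against 21.2% of all probe sets. None of the 6 was free of overlap, against 1.13%. The filter of this run lay at 427. Control means were 958 for Chrna2 and 1024 for Chrna5. In the other groups their means were 263 to 392 and 150 to 342. In every comparison of this run with all arrays, both were thus among the 6 only through the control group. Chrna2 read 543, 170, 164, 68.1 and 368 with nicotine and 124, 478, 1133, 2347 and 706 in controls. The 2 highest controls are those that stood apart. The difference was -1.40 (SE 0.54, limma adjusted p = 0.206). Without them it was -0.61 (95% interval -1.65 to 0.43), and in the first run the sign turned, at 0.45 (95% interval -0.01 to 0.92), with 499, 359, 371, 387 and 591 against 246, 272, 332, 309 and 357. These first-run groups did not overlap, as for 3.62% of probe sets there. In the first run 6 of 7 members lay above 0, with a median of 0.45 against 0.11 over all probe sets. No member passed there, against 0.339%, and 1 of 7 had an unadjusted p under 0.05, against 17.4%.

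Chrna7 had higher medians with washed-out nicotine in both runs and did not pass in either. In the first run it read 411, 777, 678, 823 and 142 with nicotine and 583, 66.2, 611, 112 and 269 in controls, a difference of 0.82 (95% interval -0.08 to 1.73, limma adjusted p = 0.344). In the repeat run it read 877, 771, 538, 155 and 401 against 296, 119, 2762, 394 and 292, a difference of 0.14 (95% interval -1.16 to 1.43). Control 3, at 2762, was the highest array of this probe set in that run. Without the controls that stood apart the difference was 0.95 (95% interval -0.23 to 2.13, adjusted p = 0.699), and over the mean of both runs without arrays that stood apart it was 0.92 (SE 0.41, adjusted p = 0.63).

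For Chrna3 the runs differed as well. The first run gave 463, 206, 413, 497 and 476 with nicotine against 33.3, 128, 364, 246 and 40.6, a difference of 1.30 (SE 0.42, limma adjusted p = 0.139). In the repeat run it was below the filter, with 88.9, 99.8, 57.4, 91.3 and 516 against 59.9, 264, 963, 405 and 478. The nicotine arrays were the higher group in one run and mostly the lower in the other. Chrnb4 by J05232cds_s_at read 930, 1199, 1055, 1208 and 1417 against 691, 696, 5157, 2240 and 861 in the repeat run. Without the controls that stood apart all nicotine arrays were above the remaining 3 controls, at 0.59 (SE 0.21, limma adjusted p = 0.572), where 3.05% of probe sets had no overlap; in the first run the difference was 0.33 (95% interval -0.27 to 0.94) with overlap. With U42976_at it was 0.00 (95% interval -0.53 to 0.54) without those controls. Chrnb2 read 769, 499, 576, 201 and 432 with nicotine and 370, 41.8, 4630, 664 and 227 in controls. Its difference was -0.04 (95% interval -1.38 to 1.31) with all arrays of the repeat run, 1.18 (SE 0.42, limma adjusted p = 0.572) without the controls that stood apart, and -0.44 (95% interval -1.16 to 0.28) in the first run, so its direction was not settled. Chrna5 differed by -0.69 with all arrays and by -0.07 without the controls that stood apart, of which control 3 read 3859.

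The antagonist 4R was tested at the same 18 h as nicotine, in a run of its own. After 18 h of 4R no member and none of the 884 probe sets passed (0% by limma), and no member against 2.26% of probe sets had an unadjusted p under 0.05. The members lay between -0.50 and 0.57 with 4 of 7 above 0. Their median was 0.02 against -0.00 over all probe sets.

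One member, Chrnb4 by J05232cds_s_at, had groups that did not overlap, against 8.14% of the tested probe sets. It read 603, 669 and 687 with 4R and 929, 979 and 741 in controls, so that all 4R arrays were lower. The difference was -0.39 (SE 0.18, 95% interval -0.82 to 0.03, limma adjusted p = 1). The second Chrnb4 probe set did not show this: U42976_at read 1137, 819 and 968 against 900, 922 and 905, a difference of 0.08 (95% interval -0.33 to 0.49). The summed neuronal marker signal was also lower in all 4R arrays, at 131267 to 138674 against 143888 to 156825, and its part in the Chrnb4 values was not tested.

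Chrna7 (L31619_at) read 1141, 763 and 258 with 4R and 1311, 674 and 829 without, a difference of -0.50 (95% interval -1.64 to 0.64). The 4R arrays lay on both sides of the control mean. S53987_at of the same gene, too dim to test, read 91.5, 77.7 and 157 against 215, 162 and 173, lower without overlap. Chrna3, the usual partner of beta4, read 363, 461 and 421 against 452, 133 and 267, a difference of 0.57 (95% interval -0.36 to 1.49). Chrna4 differed by -0.12 (95% interval -0.68 to 0.44) and Chrnb2 by 0.02 (95% interval -0.48 to 0.51), with 686, 659 and 886 against 800, 587 and 821. The alpha4 and beta2 groups thus overlapped widely. Chrna2 differed by 0.22 (95% interval -0.43 to 0.86). Chrna6, untested, read 134, 84.3 and 182 against 58.9, 60.5 and 64.8, higher without overlap at a signal below the filter of 266.

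**Figure D3:**
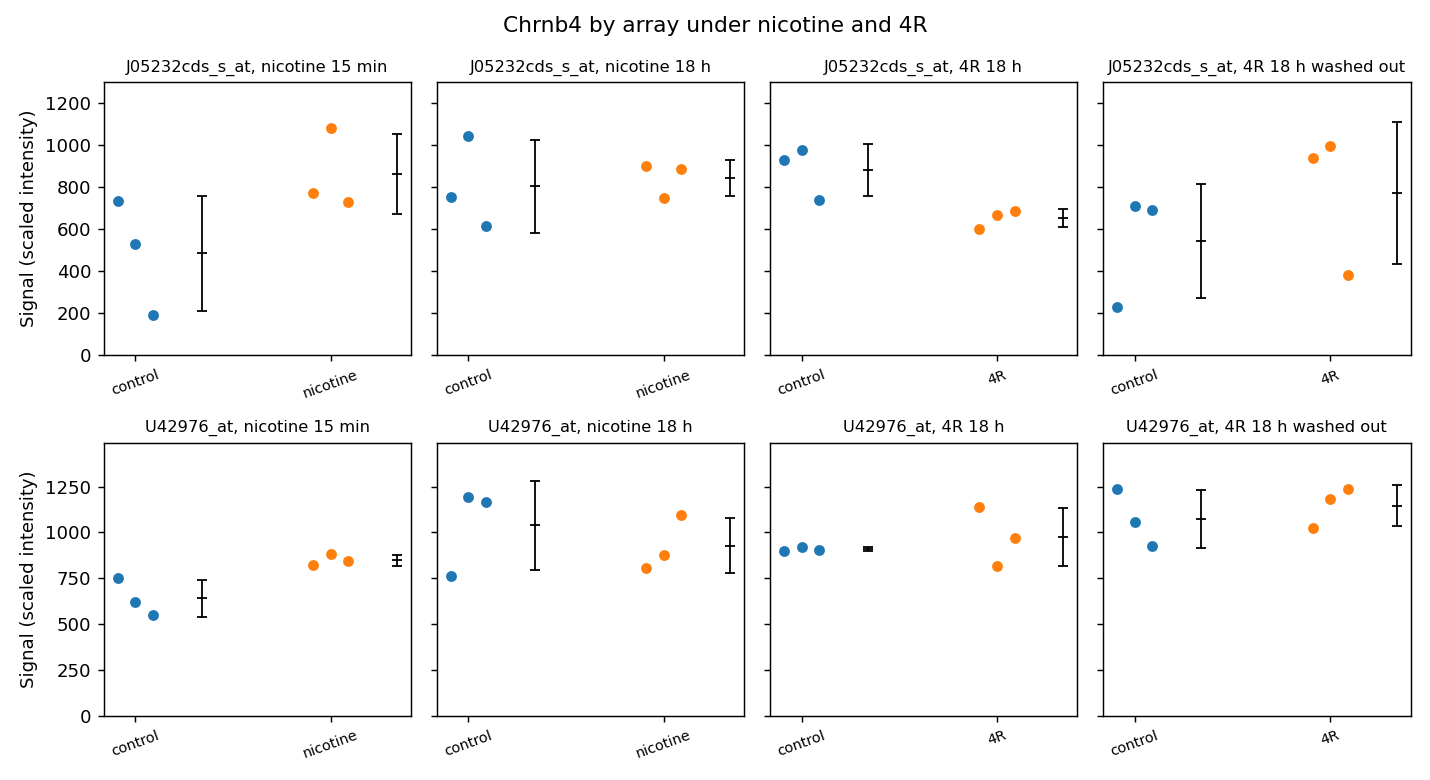
Signal of the 2 Chrnb4 probe sets by array for nicotine and 4R, with the mean and SD of 3 arrays beside each group; axes start at 0. After 15 min of nicotine U42976_at is higher in every treated array (821 to 880 against 549 to 751), and after 18 h of 4R J05232cds_s_at is lower in every treated array while U42976_at overlaps.

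With 4R washed off for 24 h, 6 of 7 tested members lay above 0, and their median was 0.40 against 0.04 over all probe sets. No member and none of the 884 probe sets passed (0% by limma). No tested member was free of overlap, against 5.54%, and no member against 1.58% had an unadjusted p under 0.05. The widest difference was that of Chrnb2, which read 242, 449 and 666 with washed-out 4R and 366, 139 and 274 in controls, at 0.61 (95% interval -0.51 to 1.73, limma adjusted p = 0.999). Chrna2 read 1079, 607 and 260 against 158, 723 and 379, at 0.53 (95% interval -0.79 to 1.86). Chrna7 read 494, 632 and 945 against 899, 175 and 645, at 0.40 (95% interval -0.77 to 1.56). Both groups overlapped for all 3 genes. Chrnb4 differed by 0.47 (95% interval -0.64 to 1.57) and 0.09 (95% interval -0.42 to 0.60), Chrna3 by 0.18 (95% interval -1.04 to 1.39) and Chrna4 by -0.09 (95% interval -1.08 to 0.90). Chrna5, below the filter of 308, read 330, 210 and 190 against 67.8, 115 and 70.7. All treated arrays were higher, and the controls of this run were the lowest run median of Chrna5, at 70.7.

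Nicotine for 18 h was also combined with NMDA, which lets the subunits be followed with either agent alone and with both. Chrna3 had the largest difference among the members in this experiment. NMDA for 60 min gave 232, 258 and 125, against 435, 372 and 751 in controls, and nicotine followed by NMDA gave 356, 367 and 470. Nicotine alone gave 482, 373 and 310. All NMDA arrays were below all arrays of the other 3 groups. NMDA against control was -1.12 (SE 0.34, 95% interval -1.85 to -0.39, limma adjusted p = 0.377). Of all probe sets 9.28% had no overlap in this comparison, 6.11% had an unadjusted p under 0.05 and 0.905% passed, so the single Chrna3 member of 7 with such a p is near that share.

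Nicotine within NMDA gave 0.83 for Chrna3 (SE 0.34, limma adjusted p = 1), again without overlap, against 5.88% of probe sets; 1.58% had an unadjusted p under 0.05 and 0% passed. The interaction, the difference between the effect of nicotine with and without NMDA, was 1.16 (SE 0.48, 95% interval 0.12 to 2.20, limma adjusted p = 0.997), with 1.81% of probe sets at an unadjusted p under 0.05 and 0% passing. These comparisons share the NMDA arrays. Control 2 and NMDA 2 stood apart in this run, with ratios of 3' to 5' GAPDH signal, a measure of RNA quality, of 3.36 and 2.18. Without both arrays the NMDA difference was -1.46 and the 95% interval of the interaction 0.36 to 2.64, and neither passed. That left 2 control and 2 NMDA arrays. In that setting 6% of probe sets had an unadjusted p under 0.05 for NMDA against control and 2.26% for the interaction. For NMDA against control 34.2% had no overlap.

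The direction was not that of the other NMDA experiments throughout. Chrna3 differed by 0.30 (SE 0.62) after 60 min of continuous NMDA, with 506, 753 and 243 against 455, 182 and 513, and by -0.91 (95% interval -2.51 to 0.69) 24 h after a 60 min pulse, with 57.2, 60.7, 484 and 592 against 601, 543, 704 and 154. The groups overlapped in both.

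For the other subunits, NMDA against control in the nicotine and NMDA experiment gave 0.83 for Chrna4 (95% interval -0.31 to 1.98), -0.96 for Chrnb2 (95% interval -2.14 to 0.22) and -0.09 for Chrna7 (95% interval -1.25 to 1.07). Chrnb2 read 427, 58.1 and 467 after NMDA against 634, 594 and 422, and its lowest value came from NMDA 2. Without the 2 arrays that stood apart Chrnb2 was lower with nicotine and NMDA than with NMDA alone, by -0.99 (95% interval -1.91 to -0.06, limma adjusted p = 0.998), and J05232cds_s_at of Chrnb4 was 0.55 higher with NMDA than in controls (SE 0.25, adjusted p = 0.808). Both comparisons then rested on 2 NMDA arrays, and the latter on 2 controls. An unadjusted p under 0.05 was found for 2 of 7 members in each, against 2.49% and 6% of probe sets. Groups did not overlap for 14.1% and 34.2% of probe sets, and 0% and 1.24% passed. Chrnb4 by U42976_at read 1116, 1208 and 1141 with nicotine and NMDA and 808, 875 and 1095 with nicotine alone, 0.31 higher without overlap (95% interval -0.19 to 0.81), as were 10.7% of probe sets in either direction. There 1.02% of probe sets passed and 3.39% had an unadjusted p under 0.05, and no member did either. J05232cds_s_at gave 0.06 (95% interval -0.43 to 0.55) in the same comparison. Chrna5, untested in this run, read 309, 285 and 245 with both agents, above nicotine alone at 159, 234 and 201 and above NMDA alone at 155, 204 and 204.

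**Figure D4:**
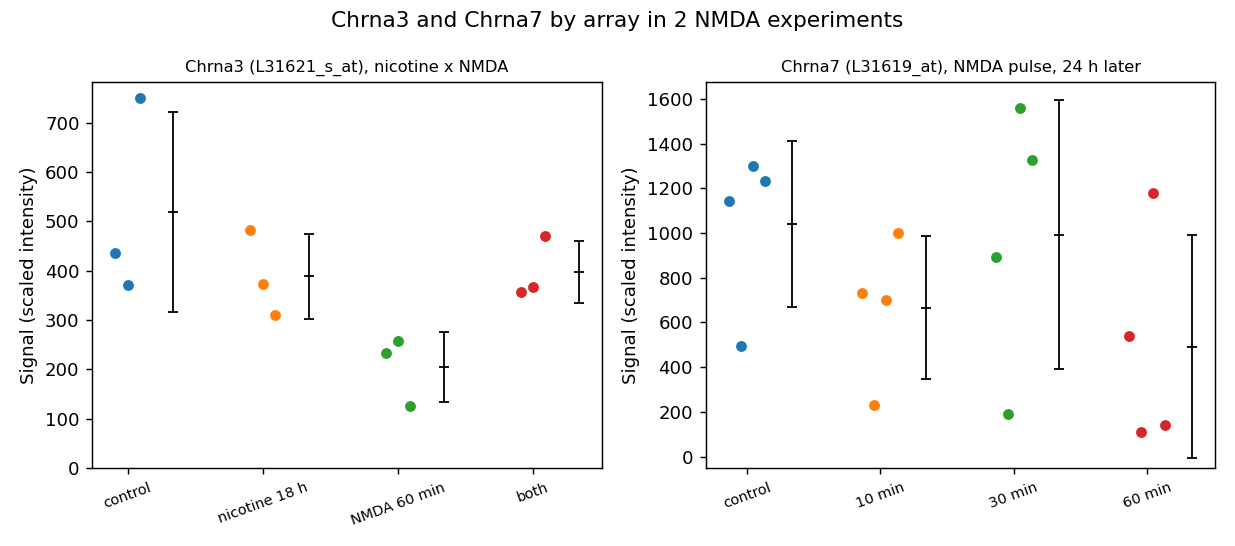
Signal by array (points) with mean and SD beside each group for Chrna3 in the nicotine and NMDA experiment (left, 3 arrays a group) and Chrna7 in the pulse experiment (right, 4 arrays a group). The 3 NMDA arrays of Chrna3, at 125 to 258, lie below all others, and Chrna7 has its lowest values, 110 and 140, after the 60 min pulse.

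In the first run of the washed-out samples, Chrna7 by L31619_at read 1241, 1046, 879, 657 and 1053 a day after a 30 min NMDA pulse, 997, 973, 869, 719 and 924 after nicotine and NMDA, and 583, 66.2, 611, 112 and 269 in controls. Every NMDA array lay above every control. The difference was 1.70 (SE 0.43, 95% interval 0.80 to 2.61, limma adjusted p = 0.0155), and it passed. In that run 13.9% of probe sets passed, 97 of these 123 being higher with NMDA, and 10.2% had no overlap. Chrna7 was tested there by L31619_at alone, as L31619_g_at and S53987_at were below the filter. Of the 7 tested members 2 passed.

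The second was Chrnb4 by J05232cds_s_at, which read 755, 986, 864, 984 and 1231 against 561, 817, 188, 677 and 403, a difference of 0.91 (SE 0.29, limma adjusted p = 0.0415). Only the lowest NMDA array, 755, lay under the highest control. The other Chrnb4 probe set, U42976_at, read 863, 1059, 916, 1094 and 1012 against 857, 536, 685, 750 and 811, higher in all NMDA arrays at 0.43 (SE 0.16, limma adjusted p = 0.0908). The summed signal of Igf2, the marker of endothelial or meningeal cells, was higher in the same arrays without overlap, at 3743 to 4536 against 2765 to 3171, while the neuronal sums overlapped, at 125101 to 148265 against 134759 to 151163. Oligodendrocyte sums were 5016 to 8414 against 3879 to 5406. The controls that read 66.2 and 112 for Chrna7 had the highest ratios of 3' to 5' GAPDH among the 5, at 1.79 and 1.66. Both readings lay below that run's filter of 255, and the offset added before the log was 57.2. The part of these in the Chrna7 and Chrnb4 values was not tested.

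The repeat run of the same samples did not give these calls with all arrays. Chrna7 read 1008, 1316, 947, 144 and 493 after NMDA, 868, 450, 1061, 523 and 1036 after both agents, and 296, 119, 2762, 394 and 292 in controls, a difference of 0.51 (95% interval -0.79 to 1.80, limma adjusted p = 0.644). The control at 2762 lay above all NMDA arrays. In this run 0.226% of probe sets passed and 1.81% had no overlap, and no member of 6 did either; at an unadjusted p under 0.05 there was no member against 17.8%. Without controls 3 and 4 the Chrna7 difference was 1.32 (SE 0.56, limma adjusted p = 0.203), and 1.60 (SE 0.43, adjusted p = 0.0439) with the replicate number as a block as well, where 6% of probe sets passed, against 1.81% without the block. The labels of this run give no more than the number to pair arrays by. Chrnb4 by J05232cds_s_at, at 788, 1397, 1525, 1474 and 1183 against 691, 696, 5157, 2240 and 861, gave -0.15 (SE 0.41) with all arrays and 0.70 (SE 0.21, adjusted p = 0.0832) without those controls. Chrnb2, at 503, 324, 267, 377 and 587 after NMDA, moved from -0.22 (SE 0.65) with all arrays to a 95% interval of 0.11 to 1.89 without those controls (adjusted p = 0.203). Over the mean of both runs Chrna7 had an adjusted p of 0.184 with all arrays, and without arrays that stood apart gave 1.54 (SE 0.41, adjusted p = 0.0353); for J05232cds_s_at the latter gave 0.69 (SE 0.20, adjusted p = 0.0483), and 7.24% of probe sets passed. Both runs read the same samples and so are not independent.

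Within nicotine, NMDA against no NMDA gave Chrna7 a difference of 0.57 (95% interval -0.72 to 1.87) in the repeat run and 0.79 (95% interval -0.12 to 1.69) in the first. No member passed in either, against 0% and 2.04% of probe sets. In the repeat run no member was free of overlap, against 4.64%, or had an unadjusted p under 0.05, against 4.52%. Chrna4 in the first run was lower with both agents than with nicotine, at 435, 369, 105, 253 and 95.6 against 692, 579, 700, 537 and 189, a difference of -1.01 (SE 0.44, limma adjusted p = 0.269). In the repeat run, where Chrna4 was below the filter, it read 164, 586, 93.3, 110 and 420 against 669, 488, 548, 389 and 91.2, with overlap in both. Nicotine within NMDA gave members between -0.77 and 0.20 in the repeat run, the interaction gave them between -0.07 and 1.03, and neither comparison had a member or any probe set past the threshold (0% by limma). At an unadjusted p under 0.05 there was no member in either, against 0.452% and 3.73% of probe sets.

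**Figure D5:**
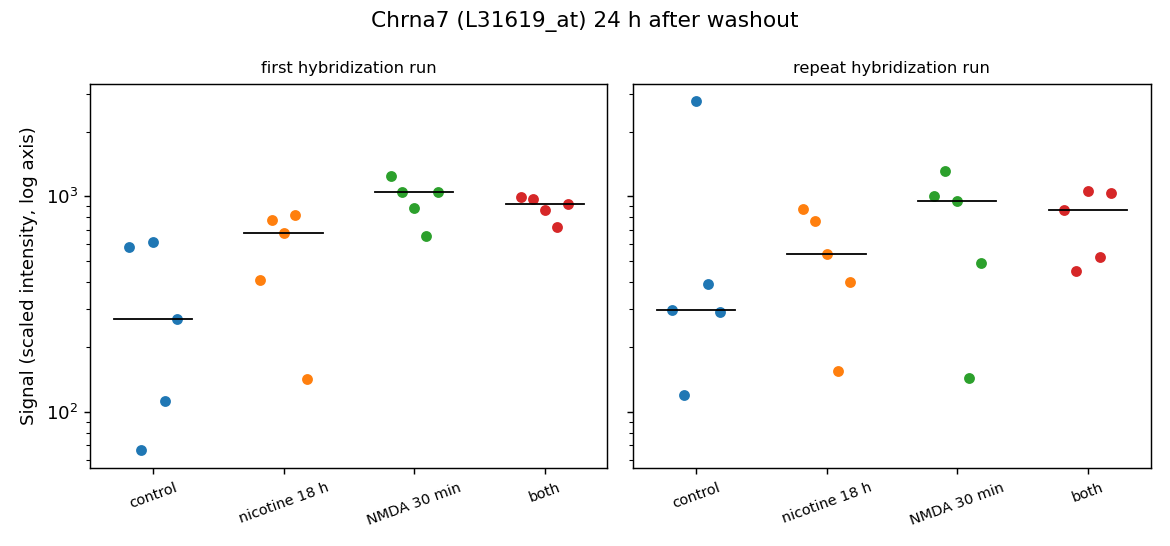
Chrna7 (L31619_at) by array 24 h after washout in the first (left) and repeat (right) hybridisation of the same samples, on a log axis; points are 5 arrays a group and lines are medians. The NMDA arrays (657 to 1241) lie above the controls (66.2 to 611) in the first run, and in the repeat run 1 control at 2762 lies above all others.

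In the separate pulse experiment Chrna7 did not move the same way. A day after a 60 min pulse L31619_at read 538, 110, 1178 and 140, against 1142, 494, 1300 and 1232 in controls, a difference of -1.38 (SE 0.65, 95% interval -2.73 to -0.02, limma adjusted p = 0.775). Each array was below the control of the same replicate number. The numbers follow dates in the labels, with 1 date shared by replicates 3 and 4, and with the number as a block the adjusted p was 0.14. Replicate 4 of the 60 min group, at 140, stood apart and had a ratio of 3' to 5' GAPDH of 12.3; without arrays that stood apart the difference was -1.05 (adjusted p = 0.609) and with the block as well -0.89 (adjusted p = 0.128). Of all probe sets 6.11% had an unadjusted p under 0.05 and 1.58% passed, and 1 member of 7 and none did so.

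After the 30 min pulse Chrna7 read 892, 190, 1560 and 1326, a difference of -0.28 (95% interval -1.64 to 1.08), and after the 10 min pulse 732, 232, 700 and 1002, a difference of -0.66 (95% interval -2.02 to 0.70). Replicate 2 was the lowest of its group at 10 and 30 min, at 60 min and in the controls. The 30 min pulse here used the same NMDA dose, length and delay as in the washed-out experiment. There the first run gave 1.70 (95% interval 0.80 to 2.61), against -0.28 here. The ends of the 2 intervals overlap, which does not show that the experiments agree. The difference between the experiments was not tested. Chrna4 differed by -0.67 (95% interval -1.64 to 0.29) after 60 min, Chrna3 by -0.73, -0.91 and -0.91 after 10, 30 and 60 min with intervals that include 0, and the Chrnb4 probe sets by 0.01 to 0.37 over the 3 lengths. No member passed after any pulse, against 2.26%, 1.36% and 1.58% of probe sets for 10, 30 and 60 min. At an unadjusted p under 0.05 there was no member of 7 after 10 and 30 min, against 9.28% and 4.98% of probe sets.

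In the second pulse set, with 1 array a group and no test, Chrna7 read 334 in the control and 739, 404 and 391 after 10, 30 and 60 min, so the treated arrays lay above that control where the first set had them mostly below. Chrnb4 read 808, 661, 889 and 682 by J05232cds_s_at and 731, 722, 614 and 762 by U42976_at in the same order. Chrnb2 read 336, 414, 466 and 783.

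Under continuous NMDA the members stayed within their spread. No member passed at 10, 30, 60, 180 or 360 min, against 0%, 0%, 0.679%, 0.452% and 0% of probe sets by limma, and none reached an unadjusted p under 0.05, against 7.13%, 1.81%, 2.26%, 3.96% and 8.26% of all probe sets. No tested member was free of overlap at any time, against 9.73%, 4.86%, 6.56%, 7.47% and 11.2%. Chrna7 read 1046, 992 and 1360 in controls and ranged from 371 to 1588 at 10 min and from 522 to 1330 at 360 min; the differences were -0.47 (95% interval -1.39 to 0.46) and -0.46 (95% interval -1.38 to 0.47). Without arrays that stood apart the difference at 10 min was 0.00 (95% interval -0.84 to 0.84). At 60 min it was 0.10 (95% interval -0.82 to 1.03). Chrnb2 differed by -0.56, -0.19, -0.00, -0.16 and -0.57 in order of time. The extreme values of several members came from 2 arrays that stood apart: replicate 3 at 360 min read 2318 for Chrna2, 1309 for Chrna3, 2727 for Chrna4 and 3237 for U42976_at, and replicate 2 at 10 min read 4616 for J05232cds_s_at. Among dim members, Chrna5 at 60 min, with 265, 155 and 266 against 314, 381 and 348, and Chrna6 and Chrnb3 at 180 min, with 59.6, 176 and 55.4 against 260, 177 and 775 and with 31.1, 110 and 36.9 against 128, 383 and 132, were lower than all controls, with no test.

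Other genes of cholinergic signalling gave no calls either. Of the other nicotinic subunits, those of muscle and of the alpha9 group, 6 of 7 genes were on the array and 4 or 5 were tested in the nicotine and 4R comparisons against control. The smallest p among them over those 5 comparisons was for the muscle beta subunit Chrnb1 after 18 h of 4R, at 0.31 (SE 0.19, limma adjusted p = 1). Of muscarinic receptors and the enzymes and transporters of acetylcholine, 7 of 10 genes were on the array and 5 or 6 were tested. All 6 tested were below 0 with nicotine washed out, with a median of -1.02 against -0.11 over all probe sets, in the run where controls 3 and 4 stood apart; Chrm5, a muscarinic receptor, had the smallest p, at -1.99 (SE 0.56, limma adjusted p = 0.191). Of the relatives in the same channel superfamily, the GABA-A, glycine and 5-HT3 receptor subunits, 19 of 26 genes were on the array and 12 to 14 were tested. The GABA-A subunit Gabre had the smallest p of these over the 5 comparisons, with nicotine washed out, at -1.73 (SE 0.62, limma adjusted p = 0.191), in the same run. None of these genes passed the threshold in any of the 21 comparisons. None of the 8 assembly factors listed, such as Ric3 and Lynx1, was named on the array.

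Over the 84 arrays, each run centred on its mean, the probe sets whose pattern was most like that of each member tested in all runs were named from 750 probe sets. For Chrnb4 by U42976_at they were the dopamine receptor Drd5 (Pearson r = 0.86), the neuropeptide Avp (0.82) and the growth factor Igf2 (0.81); without the 9 arrays that stood apart the same pairs gave 0.65, 0.66 and 0.57. For J05232cds_s_at they were Slc18a3, Drd5 and Igf2, at 0.66, 0.66 and 0.66, and 0.47, 0.43 and 0.45 without those arrays. Chrnb4's own probe sets correlated at 0.63 with all arrays and 0.35 without those 9. For Chrna7 they were the neurturin co-receptor Gfra2 (0.51), Cdc42bpa (0.50) and the GABA-A subunit Gabrb2 (0.48), and for Chrnb2 they were Gabrb2 (0.63), Gabra2 (0.61) and Slc8a1 (0.57). For Chrna2 they were Avp (0.66), Cit (0.65) and the vesicular acetylcholine transporter Slc18a3 (0.64). Without the 9 arrays none of the 3 named for Chrna7 stayed among its first 3, which became Rb1 (0.53), Grin2b (0.51) and Hif1a (0.50), and none of the 3 named for J05232cds_s_at did. Of the 3 named for Chrnb2, 1 stayed, and 2 each for Chrna2 and U42976_at. The points share arrays and scaling, and most of these values fell when the 9 arrays were left out, for Chrnb2 with Gabra2 from 0.61 to 0.33.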

How the data were processed

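RNA from 112 samples was hybridised to an Affymetrix rat array of 1322 probe sets, of which 59 control probe sets were left out here. The deposited values are linear intensity, scaled by the authors: with 2% trimmed at each end, the mean of every array in the main runs lay between 2503 and 2513. Which software made them is not stated in the labels or files. They were scaled no further. Each value was taken as log2(intensity + offset), the offset being the 10th percentile of its run (57.1 to 88.1), so the change of dim probe sets is understated. Probe sets with a run mean below the 30th percentile were left out of that run, which left 884. Group means were fitted per run over all its groups with limma 3.58.1 in R 4.3.3 (eBayes with an intensity trend). P-values are 2-sided and adjusted by Benjamini-Hochberg over the 884 probe sets of a comparison, with a threshold of 0.05, and a listed change is the difference of group means on the log2 scale. The number of arrays limits the precision. The fits were also run on simulated independent values with large planted changes. That check does not cover the smaller changes, the pairing or the arrays that stood apart here.

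An array stood apart where its mean Spearman correlation with its run lay more than 3 median absolute deviations below the run's median. Same-numbered arrays share a date in the labels of the pulse, the nicotine and NMDA, and the 4R 18 h experiments. Deviations from the group means of such pairs had median correlations of 0.31, 0.28 and 0.49 in that order. Other pairs had -0.08, -0.12 and -0.24. The main fits, with their SEs, intervals and p-values, did not use this pairing, and the replicate block was an alternative. Under continuous NMDA every same-numbered pair deviated together, with correlations of 0.12 or more. In the nicotine 15 min and the washed-out nicotine and NMDA runs only the number is shared (lowest correlations 0.011 and -0.10). In the washed-out 4R run the labels give replicates 4 and 5 of both groups a shared date (lowest correlation 0.031). One repeat array of the pulse experiment equalled its original within 0.1 at all 1322 values, and repeat arrays were not used. Replicate 1 of the 30 min pulse carries 60 min in one label field and was kept with the 30 min group.

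All member probe sets are named, and of other lists the gene with the smallest p where none passed. Members, lists and likeness rule were chosen with earlier results of these data known. Promoter sequences are RefSeq's (GRCr8); all 9 genes matched by Entrez ID.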

Additional observations from a re-analysis of the deposited data

Results flagged for a closer look

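In groups of 4 or 5 arrays, 52 sets of values of tested members were searched for 1 value far from the rest, and 4 were found, where chance gives about 1 in 20. Chrna5 read 3859 in washed-out control 3 of the repeat run, against 271 to 395 in the other 4, and that array stood apart over all probe sets. Chrna5 also read 198 in replicate 5 of the washed-out NMDA group, against 282 to 312 in the others. Chrna7 (L31619_at) read 494 in replicate 2 of the pulse controls, against 1142 to 1300. Chrnb2 read 821 in replicate 3 of the 30 min pulse, against 264 to 297. Of 24 pairs of comparisons searched for opposite moves, 1 was found: Chrnb4 by U42976_at was 0.39 after 15 min of nicotine, with every array above the control mean, and -0.86 with nicotine washed out, with every array below a control mean raised by controls 3 and 4. That difference between the experiments was not tested.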

How the results depend on the processing

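Over 413 refits of the 21 comparisons, a member passed in 4, all of NMDA 30 min washed out, where the main setting gave 0 members: 2 in the first hybridisation run, 2 in that run without arrays that stood apart, 2 in the mean of both runs without such arrays, and 1 in the repeat run without such arrays and with the replicate block. The number of all probe sets passing in that comparison was 2 in the main setting and 0 to 131 under alternatives, with 131 in the first run without arrays that stood apart. Leaving out 1 array at a time gave 0 members in every comparison. The replicate block on its own changed no member's call; with it Chrnb4 (J05232cds_s_at) after 15 min of nicotine had an adjusted p of 0.92. Of the changes singled out for refitting, that of Chrna2 with nicotine washed out reversed: it was -1.40 in the repeat run, 0.45 in the first run and 0.36 in the first run without arrays that stood apart; the cause was not tested. Where arrays that stood apart were left out or the first run or the mean of both runs was taken, 40 of 127 tested member changes turned sign in at least 1 such setting, in 13 of 19 comparisons. Of these, J05232cds_s_at with NMDA washed out passed after turning, as given above. The count of all probe sets passing also changed by more than 1.5 times elsewhere. It went from 20 to between 9 and 51 after the 10 min pulse, from 12 to between 7 and 43 after 30 min and from 14 to between 4 and 38 after 60 min. Under continuous NMDA it went from 0 to at most 8 at 30 min, from 6 to between 0 and 11 at 60 min, from 4 to between 0 and 17 at 180 min and from 0 to at most 22 at 360 min. With nicotine and NMDA without washout it went from 8 to between 6 and 14 for NMDA and from 9 to between 5 and 12 for NMDA within nicotine. For NMDA within nicotine washed out it went from 0 to at most 57, for nicotine washed out from 0 to at most 4, for nicotine within NMDA washed out from 0 to at most 2 and for nicotine 15 min from 0 to at most 1. The alternatives that leave out arrays together with the block, and those that leave arrays out of the first run or the mean of both runs, were chosen after seeing the data. Signal over background limits Chrna6, Chrnb3 and 2 Chrna7 probe sets, which were never tested. It also limits tested members, of which single arrays read near or below the offset of their run. One washed-out control of the repeat run read 41.8 for Chrnb2, against an offset of 60.8.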
